A study of Mus musculus with 4 samples.

Results

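Heat shock proteins and the related alphaB-crystallin gene Cryab were followed in single cells of mouse spermatogonial cultures. The 10 genes were Cryab, Hspb1, Hspa1a, Hspa1b, Hspa2, Hspa8, Hsph1, Dnajb1, Hsp90aa1 and Hsp90ab1, out of 32285 genes in the deposited matrices, and each symbol matched 1 row. They were picked by name with earlier results of these data known, so that their differences between the arms are given as descriptions. The cultures had been started from 3 male pups at postnatal day 6, and their Thy1-positive cells, the sorted fraction that holds spermatogonial stem and progenitor cells, lay on STO feeders, a mouse embryonic fibroblast line. The medium of both arms carried GDNF and FGF. One arm received PBS as vehicle and the other received extracellular vesicles (EVs) from testes of C57/BL6 mice at postnatal day 7, at 1 μg/mL for 3 days. No genotype or other treatment separated the arms, and the strain of the pups is not given in the sources used here. Cell clumps were digested to single cells and taken into droplet libraries, 2 per arm, called vehicle 1, vehicle 2, EV 1 and EV 2. The titles call the replicates biological, but no label ties them to separate cultures. Expression of EV 2 was not analysed here. With a single EV library the arms could not be tested over samples, and their differences have no replicate check. Germ and feeder cells were compared within each library by their ratios, without a test.

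Heat shock proteins are chaperones that bind unfolded proteins and help them fold or refold. Small heat shock proteins such as alphaB-crystallin hold clients without using ATP, HSP70 proteins fold them in ATP cycles that J proteins start and HSP110 proteins reset, and HSP90 proteins finish signalling clients such as kinases and steroid receptors. Under heat or proteotoxic stress, heat shock factor 1 binds repeats of the letters nGAAn in front of many of these genes and switches them on, while Hspa8 and Hsp90ab1 are made at all times. In the testis Hspa2 is the chaperone of meiotic and later male germ cells, and the HSP90alpha gene is needed for meiosis.

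The sequences in front of the stress-inducible members are shown for runs of letters like the heat shock element and for how alike 2 of the members are. RefSeq promoter sequences (GRCm38.p6, the 250 bases before each RefSeq start) were given for 6 of the 10 members. Cryab, Hspa8, Hsp90aa1 and Hsp90ab1 had no entry. Each was searched for GAANNTTC or TTCNNGAA, a pair of facing repeats of the heat shock element, which reads alike on both strands. Capitals mark the matches in the upstream sequences of Hspb1 (chr5:135887669-135887918, plus strand), Hspa1a (chr17:34972157-34972406, minus strand) and Hspa1b (chr17:34959239-34959488, minus strand), each written 5′ to 3′ toward the gene.
Hspb1: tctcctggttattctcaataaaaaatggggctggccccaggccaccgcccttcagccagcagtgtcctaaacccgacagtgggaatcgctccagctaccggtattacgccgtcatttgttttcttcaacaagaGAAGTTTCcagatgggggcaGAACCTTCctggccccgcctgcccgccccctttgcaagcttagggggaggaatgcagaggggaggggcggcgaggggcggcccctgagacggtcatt
Hspa1a: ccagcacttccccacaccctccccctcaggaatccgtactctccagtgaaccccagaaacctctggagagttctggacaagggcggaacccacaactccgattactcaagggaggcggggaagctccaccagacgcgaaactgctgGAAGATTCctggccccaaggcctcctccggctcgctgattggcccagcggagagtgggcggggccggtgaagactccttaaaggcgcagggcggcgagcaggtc
Hspa1b: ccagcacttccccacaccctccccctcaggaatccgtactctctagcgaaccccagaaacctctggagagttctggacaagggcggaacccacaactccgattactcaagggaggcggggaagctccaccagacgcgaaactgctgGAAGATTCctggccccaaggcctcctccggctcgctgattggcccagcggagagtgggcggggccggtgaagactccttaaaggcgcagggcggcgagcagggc
Hspb1 held 2 matches, which began 117 and 97 bases before the start. Hspa1a and Hspa1b each held 1 match, 104 bases before the start, and their 250 bases were 98.8% identical, with the 3 differences C44T, T47C and T249G (Hspa1a first, counted from the 5′ end of the printed run). Hsph1 held 1 match, TTCTCGAA, at the same genomic site in both of its overlapping entries. That site lies inside the GENCODE model of Hsph1 and not in front of it. The entries of Hspa2 and Dnajb1 held none. The Hspa2 window lies mostly inside the GENCODE model of the gene and 1 of the Dnajb1 windows wholly inside it, so these say little of the sequence in front. Of 32851 promoters of this length in the table, 12.8% held at least 1 match and 1.46% held 2 or more. A match is a run of letters and no evidence of binding.

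The 3 matrices held 10793232 to 27444797 unique molecular identifiers (UMIs, each standing for 1 captured RNA molecule), with EV 1 the shallowest, and 4779 to 8637 cells per library were kept. Cells were sorted by their own UMIs for 8 genes that are not members: germ cells had at least 2 UMIs of Dazl, Tex15, Stk31 and Epcam together and more of these than of Col1a1, Col1a2, Sparc and Dcn, and feeder cells the reverse. Vehicle 1, vehicle 2 and EV 1 gave 4421, 4780 and 226 germ cells, and 2346, 2477 and 2510 feeder cells. The remaining 18.1%, 16.0% and 42.7% of cells were unclassified. Sums over the germ cells of EV 1 came to 324434 UMIs only, against 9455720 and 11063898 in the vehicle libraries, and this limits every germ cell value of EV 1. Median depths of feeder cells were 3620.5, 3899 and 2447.5 UMIs. Independent markers fitted the class names: 10 further fibroblast genes summed to 3632 to 4080 CPM (UMIs per 1e6 UMIs of the class) in feeder cells against 305.2 to 613.4 CPM in germ cells, and 9 further germ cell genes to 727.4 to 1025 CPM in germ cells against 10.4 to 30.5 CPM in feeder cells. Of the 5 marker lists for other testis cells, Sertoli genes had the highest sum in feeder cells, 275.9 to 299.1 CPM, with the defining gene Amh at 0 in vehicle 1 and EV 1. Leydig, peritubular myoid, macrophage and endothelial lists stood at 2.35 to 58.8 CPM there. Between 11 and 22 barcodes were shared by any pair of libraries. Levels below are CPM within a class, intervals are 95% and cover counting error only, and vehicle means carry the SD of 2 libraries.

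**Figure D1:**
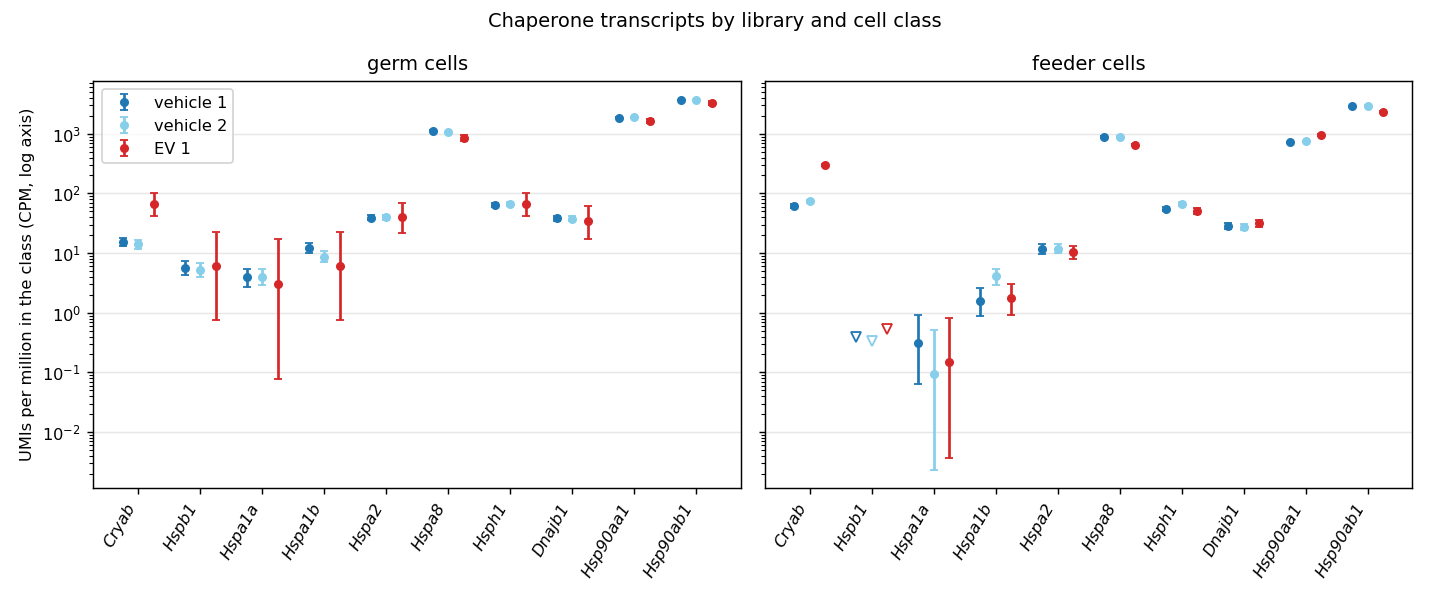
Each panel plots the 10 chaperone genes (horizontal axis) by CPM in germ cells or feeder cells (vertical log axis) for vehicle 1, vehicle 2 and EV 1, with exact Poisson 95% intervals. Open triangles mark the upper limit of a gene without UMIs. Cryab of EV 1 stands above both vehicle libraries in both classes, and Hspb1 has no UMI in feeder cells.

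Cryab had the highest ratio of EV 1 to vehicle among the members tested in either class. It encodes alphaB-crystallin, a small heat shock protein of lens and muscle that other cells make under stress (chr9:50751325-50756636, plus strand, GRCm38). In feeder cells Cryab was at 60.9 CPM in vehicle 1, 73.4 CPM in vehicle 2 and 299.3 CPM in EV 1 (intervals 56.1 to 66.1, 68.4 to 78.7 and 286.4 to 312.6). EV 1 lay far above both vehicle libraries, and vehicle 2 lay above vehicle 1 with intervals that did not overlap. The vehicle mean was 67.2 ± 8.81 CPM (SD, n = 2), which puts EV 1 at a log2 ratio of 2.16, and against the pooled vehicle cells Cryab was 4.43-fold higher (4.13 to 4.75). A gene was called when EV 1 was at least 2-fold from the vehicle mean and its gap to the nearer vehicle library exceeded the gap between vehicle 1 and vehicle 2. By this rule Cryab was the only one of the 7 members with at least 200 UMIs in feeder cells that was called higher, and none was called lower. Over all 9704 genes tested there, 1.41% were called higher and 2.82% lower, which is 137 and 274 genes, or 198 and 200 with TMM factors in place of totals. Without the 2-fold limit, EV 1 lay beyond that gap on the high side for 3 of the 7 members, beside 21.6% of all genes, and on the low side for another 3, beside 46.1%. The median log2 ratio of these 7 members was −0.18, and that of all genes tested was −0.13.

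More feeder cells carried Cryab in EV 1, and those that did carried more of it. With every cell thinned to 1000 UMIs, at least 1 Cryab UMI was found in 4.51% of vehicle 1 feeder cells (Wilson, 3.73 to 5.45), 5.04% of those from vehicle 2 (4.24 to 5.98) and 16.5% of those from EV 1 (15.1 to 18.1). Cells below that depth were left out, 86, 55 and 186 in that order. Without thinning the shares were 14.2%, 17.6% and 30.5%, although the cells of EV 1 were shallower. Germ cells, as the background class, gave 1.57%, 1.41% and 4.49% at 1000 UMIs, the last from 8 of 178 cells. The transcript was spread unevenly. Vehicle 1 had 15 unthinned feeder cells with 5 or more Cryab UMIs, vehicle 2 had 26 and EV 1 had 98, and these cells held 23.7%, 30.1% and 46.9% of the Cryab UMIs of the class. The highest single cell was alike in the 3 libraries, at 27, 29 and 30 UMIs. At 1000 UMIs the variance of Cryab per cell over its mean was 1.23, 1.36 and 2.56.

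Since metallothionein transcripts also differed between the libraries, Cryab was read within feeder cells of like Mt1 and Mt2 content. Metallothioneins bind zinc and copper and are made under metal and oxidative stress. Of the feeder cells thinned to 1000 UMIs, those with 10 or more UMIs of Mt1 and Mt2 together were 145 from vehicle 1, 142 from vehicle 2 and 915 from EV 1. In cells with 0 to 1 such UMIs, Cryab was at 46.2, 50.8 and 159.2 CPM, which is 3.27-fold higher in EV 1 (2.31 to 4.59). In cells with 2 to 9 it was at 50.2, 60.6 and 268.6 CPM, 4.84-fold higher (3.90 to 6.02). In cells with 10 or more it was at 89.7, 112.7 and 287.4 CPM, 2.84-fold higher (1.93 to 4.33). Within each library Cryab was highest in the last of these bins, with an interval that overlapped that of the middle bin, and EV 1 stood above both vehicle libraries in every bin.

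**Figure D2:**
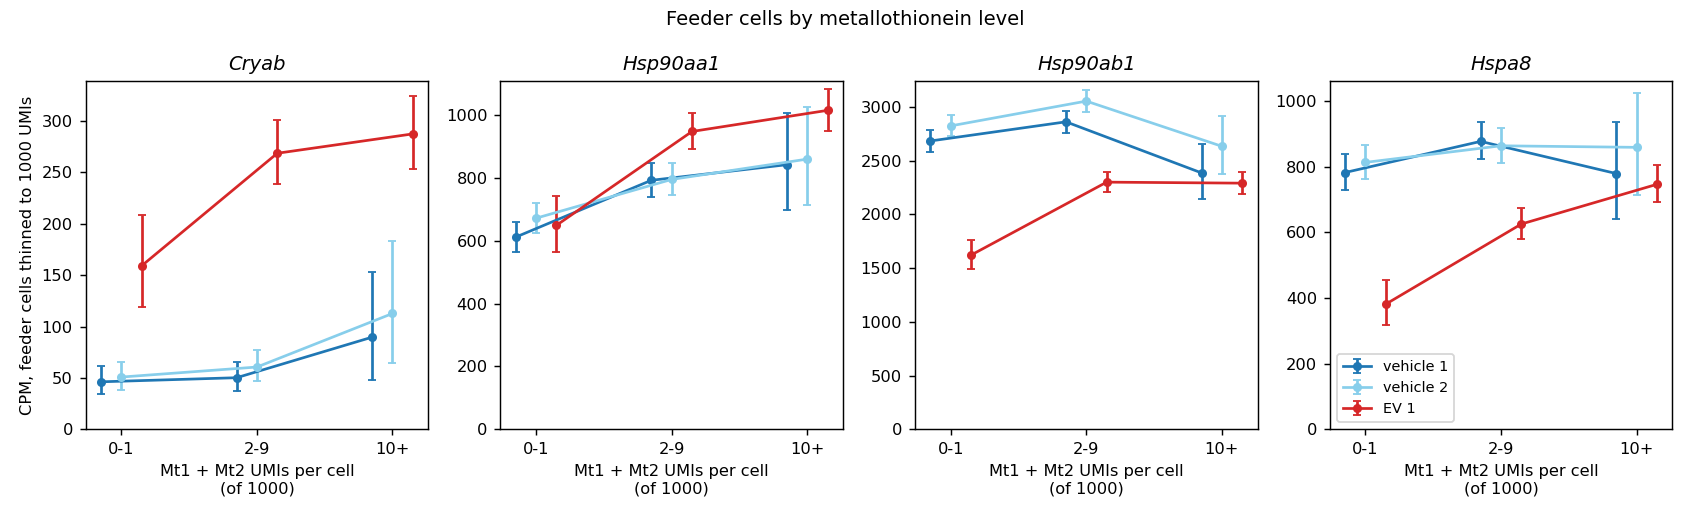
Levels of Cryab, Hsp90aa1, Hsp90ab1 and Hspa8 in feeder cells thinned to 1000 UMIs (vertical axis, CPM from 0) are plotted by the Mt1 and Mt2 UMIs of the cell (horizontal axis, 3 bins) for each library, with exact Poisson 95% intervals. Cryab of EV 1 lies above the vehicle libraries in each bin, while Hsp90aa1 of EV 1 lies at 648.6 CPM in the lowest bin, between the vehicle values.

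Germ cells gave a like ratio for Cryab at a lower level. There it was at 15.3 CPM in vehicle 1, 14.0 CPM in vehicle 2 and 67.8 CPM in EV 1, the last from 22 UMIs in 18 cells, of which 5 UMIs lay in 1 cell. EV 1 was 4.64-fold higher than the pooled vehicle cells (2.86 to 7.15), with a log2 ratio of 2.24, and its interval of 42.5 to 102.7 CPM stood apart from both vehicle libraries. Cryab was 1 of 8 members tested in germ cells and again the only one called, where 4.13% of 9676 genes were called higher and 4.38% lower. Feeder transcripts were also present in the germ cells, where the sum of the 10 fibroblast genes that the class rule did not use stood at 10.0%, 8.13% and 15.0% of its feeder cell level. Cryab stood at 25.2%, 19.1% and 22.7% of its feeder cell level. The part of feeder RNA in the germ cell value was not tested. In germ cells with at least 3 germ marker UMIs and none of the 4 feeder genes, the log2 ratio was 2.00. In unclassified cells Cryab went from 57.1 ± 11.7 CPM (SD, n = 2) to 159.5 CPM, 2.80-fold higher (2.40 to 3.27).

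Hspb1, the other small heat shock protein among the members, encodes HSP27 (chr5:135887919-135889563, plus strand). Between the sorted classes it was found in germ cells only. Germ cells of vehicle 1 gave 54 UMIs, those of vehicle 2 gave 58 and those of EV 1 gave 2, which makes 5.71, 5.24 and 6.16 CPM. Feeder cells had 0 UMIs in each library. Unclassified cells held 9, 7 and 6 UMIs in the same order (3.93, 3.14 and 2.07 CPM). With 3 counts taken as the limit of a count of 0 over both vehicle libraries, 0.148 CPM, the germ cell level was 36.9-fold that limit. This multiple is no lower bound. It leaves out counting error in the germ cells, and exact Poisson intervals set a higher limit for a count of 0. The interval of EV 1 in germ cells ran from 0.747 to 22.3 CPM, so that no difference between the arms was detectable at this depth. The gene thus showed none of the feeder cell signal of Cryab, with which it shares its protein family.

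The inducible HSP70 genes Hspa1a and Hspa1b lie side by side (chr17:34969190-34972156 and chr17:34956436-34959238, both minus strand) and encode nearly the same protein. Their transcripts were 84.5% identical over their whole length with an unbroken identical run of 638 bases, while their last 400 bases were 47.5% identical with no run over 7 bases. How the counting divided reads between them is therefore uncertain, and their sum is given too. Germ cell UMIs of Hspa1a were 37, 44 and 1 in library order (vehicle 1, vehicle 2, EV 1), and those of Hspa1b were 116, 97 and 2. Their sum was at 16.2, 12.7 and 9.25 CPM. Counting error spanned any difference, since the ratio of EV 1 to the pooled vehicle cells was 0.645 with an interval of 0.132 to 1.90. Feeder cells held less of both. Hspa1a had 3, 1 and 1 UMIs there, and Hspa1b had 15, 44 and 12 (1.58, 4.08 and 1.77 CPM). The high library was vehicle 2 and not EV 1, with 2.59 times the Hspa1b level of vehicle 1 (1.41 to 5.00), spread over 40 cells with a highest cell of 5 UMIs. EV 1 thus lay within the vehicle range, and neither gene reached 200 UMIs in feeder cells.

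Hspa2 encodes the HSP70 protein of male germ cells (chr12:76404176-76406938, plus strand). Its germ cell level was 39.1 CPM in vehicle 1, 39.9 CPM in vehicle 2 and 40.1 CPM in EV 1, from 370, 442 and 13 UMIs. The ratio of EV 1 to the pooled vehicle cells was 1.01 with an interval of 0.537 to 1.74. Feeder cells held 11.6, 11.9 and 10.3 CPM, again without a 2-fold difference (0.878, interval 0.662 to 1.15). These feeder levels were 29.6%, 29.7% and 25.7% of those in germ cells, beside 3.07%, 2.56% and 1.44% for the sum of the 9 germ cell genes that the class rule did not use. Among vehicle germ cells thinned to 1000 UMIs, Hspa2 was higher where Mki67, Top2a, Ube2c or Cdk1 was detected, at 40.3 against 32.1 CPM in vehicle 1 and 47.7 against 26.6 CPM in vehicle 2. Intervals overlapped in vehicle 1 and not in vehicle 2.

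Hspa8 encodes HSC70, the constitutive HSP70 protein (chr9:40800984-40810087, plus strand). In feeder cells it was at 884.2, 883.1 and 656.1 CPM in vehicle 1, vehicle 2 and EV 1. The vehicle libraries were within counting error of each other and EV 1 was below both, at 0.742 of their pooled level (0.718 to 0.767) and a log2 ratio of −0.43. Germ cells gave 1114, 1056 and 844.5 CPM, 0.780 of the pooled vehicle level (0.690 to 0.879). Neither difference reached 2-fold. Feeder cells were also read by metallothionein level, with no test between the levels. EV 1 was at 0.478 of the vehicle level of Hspa8 in cells with 0 to 1 Mt1 and Mt2 UMIs (0.396 to 0.572). It was at 0.719 with 2 to 9 (0.657 to 0.785) and at 0.912 with 10 or more (0.785 to 1.06). Hspa8 was also higher in vehicle germ cells with a detected cycle gene, at 1175 against 1003 CPM in vehicle 1 and 1109 against 960.6 CPM in vehicle 2, and at 1036 against 789.5 CPM with overlapping intervals in EV 1. Hsp90ab1 went the other way there, at 3586 against 4058 CPM in vehicle 1 and 3541 against 4237 CPM in vehicle 2, both with intervals apart, and at 3373 against 3389 CPM in EV 1.

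The partners of HSP70 differed by less than 2-fold between EV 1 and the vehicle mean in both classes. Hsph1, which encodes the nucleotide exchange factor HSP110 (chr5:149614287-149636376, minus strand), was at 55.2 CPM in vehicle 1, 67.1 CPM in vehicle 2 and 50.6 CPM in EV 1 in feeder cells. EV 1 was the lowest, by less than the vehicle libraries differed from each other. It was at 0.822 of the pooled vehicle level (0.728 to 0.927). Germ cells gave 64.9, 66.7 and 67.8 CPM. Dnajb1, which encodes the J protein HSP40 (chr8:83608193-83612653, plus strand), was at 28.5, 27.4 and 31.5 CPM in feeder cells, 1.13-fold the pooled vehicle level with an interval of 0.959 to 1.32. In germ cells it was at 38.1, 37.4 and 33.9 CPM. The intervals of EV 1 in germ cells included both vehicle values for either gene.

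The HSP90 genes parted in feeder cells. Hsp90aa1 encodes the inducible HSP90alpha (chr12:110690605-110702728, minus strand) and was at 722.9 CPM in vehicle 1, 750.5 CPM in vehicle 2 and 956.5 CPM in EV 1. Hsp90ab1 encodes the constitutive HSP90beta (chr17:45567775-45573271, minus strand) and was at 2870, 2972 and 2341 CPM. EV 1 was above both vehicle libraries for the first and below both for the second. Hsp90aa1 was 1.30-fold the pooled vehicle level (1.26 to 1.34, log2 ratio 0.38) and Hsp90ab1 was at 0.801 of it (0.787 to 0.815, log2 ratio −0.32). Neither was called at 2-fold. Among UMIs of both genes in feeder cells, Hsp90aa1 held 20.1% in vehicle 1 (Wilson, 19.7 to 20.5), another 20.2% in vehicle 2 (19.8 to 20.6) but 29.0% in EV 1 (28.4 to 29.6), a share that does not depend on scaling. In germ cells the share was 33.7%, 33.7% and 33.2% (30.9 to 35.5 in EV 1). Germ cell levels were 1866, 1890 and 1631 CPM for Hsp90aa1 and 3677, 3713 and 3286 CPM for Hsp90ab1, both lower in EV 1, at 0.868 (0.795 to 0.945) and 0.889 (0.836 to 0.944) of the pooled vehicle level.

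Hsp90aa1 was read by metallothionein level too, with no test between the levels. In cells with 0 to 1 Mt1 and Mt2 UMIs its ratio of EV 1 to vehicle was 1.01 (0.871 to 1.17), with 2 to 9 it was 1.19 (1.10 to 1.29), and with 10 or more it was also 1.19 (1.03 to 1.38), all with overlapping intervals. Hsp90ab1 was at 0.588, 0.777 and 0.913 of the vehicle level in the same order. Feeder cells with a Cryab UMI also had an Hsp90aa1 UMI more often than those without, in 52.0% against 46.9% of cells in vehicle 1, 58.2% against 49.1% in vehicle 2 and 61.2% against 54.9% in EV 1, all at 1000 UMIs. For Hspa8 the shares were 53.9% against 53.9%, 59.0% against 54.6% and 48.7% against 44.3%, a smaller excess in vehicle 2 and EV 1 for this constitutive gene and none in vehicle 1. For Hsp90aa1 the direction was the same in the 3 libraries, while the cells of a library are no replicates and the difference was not tested.

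**Figure D3:**
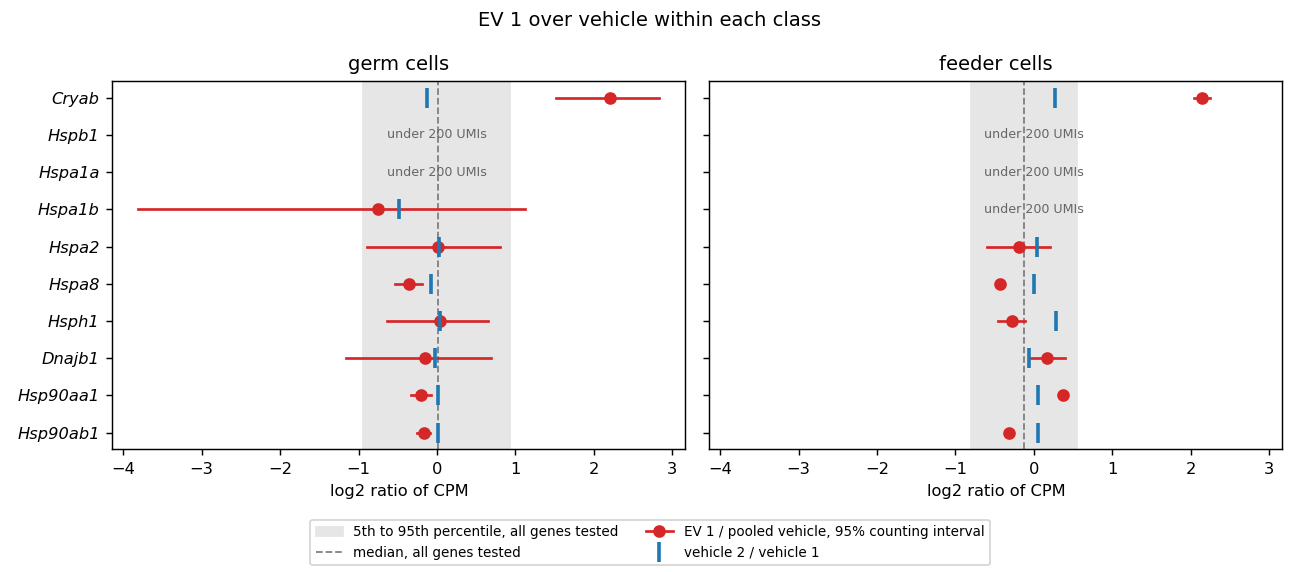
For each member, the dot gives the log2 ratio of EV 1 to the pooled vehicle cells with its 95% counting interval, and the blue tick gives vehicle 2 over vehicle 1, in germ cells and in feeder cells. The grey band spans the 5th to 95th percentile of all genes tested and the dashed line is their median. Cryab lies beyond the band in both panels, at 2.16 in feeder cells and 2.24 in germ cells by its ratio to the vehicle mean.

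Between the cell classes the members were called at shares near those of all genes. With a call for at least 2-fold in the same direction in each of the 3 libraries, 26.7% of 12135 genes were higher in germ cells and 13.8% in feeder cells. Of the 8 members with enough UMIs, Hspa2 and Hspa1b were called for germ cells and Cryab for feeder cells. Hspa1b had that number through its germ cell UMIs, so that its call is a description. The log2 ratio of germ to feeder cells was 1.75, 1.75 and 2.00 for Hspa2 in vehicle 1, vehicle 2 and EV 1, and −1.99, −2.39 and −2.11 for Cryab. For Hspa1b it was 2.92, 1.09 and 2.07. The last rests on 2 germ cell UMIs of EV 1, whose interval of 0.747 to 22.3 CPM includes the 1.77 CPM of feeder cells. Vehicle 2 came close to the threshold, and with TMM factors Hspa1b was not called. Hsp90aa1 was on the germ cell side with 1.37, 1.33 and 0.77, and was below 2-fold in EV 1. Hspa8, Dnajb1 and Hsp90ab1 lay between 0.17 and 0.49 in each library. Hsph1 was at 0.23, −0.01 and 0.45. With TMM factors the medians over the libraries of Hspa8 and Hsph1 changed sign, to −0.05 and −0.08. All 10 members together held 0.684%, 0.684% and 0.599% of the UMIs of germ cells and 0.464%, 0.479% and 0.435% of those of feeder cells.

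Over all kept cells without regard to class, Cryab was at 42.4 ± 4.25 CPM (SD, n = 2) in the vehicle libraries and 251.3 CPM in EV 1, 5.91-fold higher (5.56 to 6.27). Hspa1b, at 6.47 ± 0.228 and 2.19 CPM, and Hspa2, at 24.6 ± 0.574 and 10.7 CPM, were called lower. Hspa1b had 141 and 152 UMIs in the vehicle libraries against 22 in EV 1, and Hspa2 had 515 and 603 against 107. Both reached the minimum number of UMIs through the vehicle libraries, so that these lower calls are descriptions. Of 12590 genes, 5.71% were called higher and 19.4% lower in this comparison, which is 719 and 2441 genes, or 1071 and 1970 with TMM factors. Under those factors Hspa2 fell just short of 2-fold. Germ cells were 53.5%, 55.3% and 4.73% of the cells kept, and within germ cells neither Hspa1b nor Hspa2 was called. Over all cells, a shift in the makeup of the library and a lower level per cell cannot be told apart.

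Other genes of the chaperone system gave few calls in either class, where calls were rare among all genes too. These 97 genes came from 6 lists of chaperones and co-chaperones and 1 list of heat shock factors with their regulator Hsbp1. In feeder cells 83 of them had at least 200 UMIs, 0 were called higher beside 1.41% of all genes and 2 lower beside 2.82%, with a median log2 ratio of −0.19 beside −0.13 for all genes. The 2 were Dnajc9, a J protein and histone chaperone, at 23.4, 21.8 and 6.03 CPM in vehicle 1, vehicle 2 and EV 1 (log2 ratio −1.89), and Fkbp4, an HSP90 co-chaperone of steroid receptors, at 75.2, 78.0 and 35.9 CPM (−1.09). In germ cells 81 were tested, with a median of −0.09 beside 0.01. Dnajb2, a J protein, was called higher there (log2 ratio 1.11, from 8 UMIs in EV 1) and Hspa12a, a distant HSP70 relative, was called lower (−1.31, from 5 UMIs), beside 4.13% and 4.38% of all genes.

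By family, the feeder cell medians were −0.09 for 9 HSP70 and HSP110 genes, −0.17 for 25 J proteins, −0.26 for 23 HSP90 genes and co-chaperones, −0.24 for 10 chaperonins and −0.31 for 16 chaperones of the endoplasmic reticulum. On totals, the chaperonins of mitochondria and cytosol were mostly on the low side. Of 10, 9 lay below both vehicle libraries by more than these differed, as did 46.1% of all genes tested. TMM factors raised the median of all genes in feeder cells by 0.13, and this list was not redone with them. The log2 ratios of the 9 ran from −0.55 to −0.08, so that the smallest fell short of that shift. Hspd1 and Hspe1, which form the mitochondrial chaperonin, were at −0.52 and −0.55. Of the 9 genes listed by name under small heat shock proteins, 3 were tested in feeder cells (Hspb6, Hspb8 and Hspb11). All lay between −0.22 and −0.18 and none past the gap between the vehicle libraries. Hspb2, which overlaps Cryab on the opposite strand (chr9:50751078-50752354), had 17, 16 and 18 UMIs in feeder cells. Whether the counting used strand is not given in the sources used here. The heat shock factor genes Hsf1 and Hsf2 were at −0.27 and −0.15, and Hsbp1, which encodes a protein that binds the factor, was at −0.20.

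**Figure D4:**
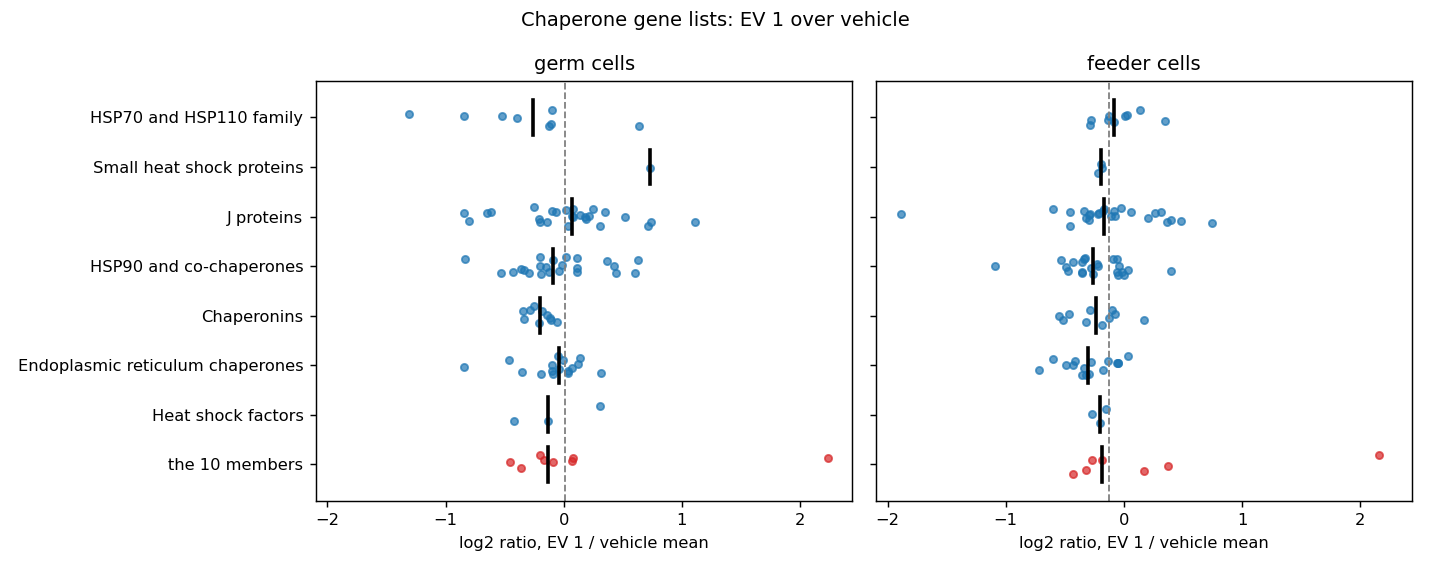
Each dot is a gene with at least 200 UMIs in the class, placed by log2 of EV 1 over the vehicle mean (horizontal axis) and by its list (vertical axis, with random jitter), in germ cells and feeder cells. Black bars are list medians and the dashed line is the median of all genes tested. In feeder cells every gene of the other lists shown lies below 0.75, while Cryab among the members lies at 2.16.

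Immediate early genes, which answer within minutes to handling of cells, also differed in the feeder cells. Of 10 such genes Fos, Fosb and Egr1 were called lower (log2 ratios −3.23, −2.47 and −1.15) and Ier3 was called higher (1.51), beside 2.82% and 1.41% of all genes. In germ cells 7 were tested, with Jun (1.10) and Junb (1.18) called higher and Egr1 (−1.02) lower, beside 4.13% and 4.38% of all genes. Their part in the levels of the members was not tested.

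The genes whose levels ran most like Cryab over the 6 sums of class and library, out of 12134 compared, were Mir22hg, Mt1 and 4930471E19Rik, with root mean square differences of centred log2 CPM of 0.13, 0.21 and 0.28. Mt1 was at 2637, 2535 and 9064 CPM in feeder cells and 708.2, 589.6 and 2725 CPM in germ cells. Nearest to Hspa2 were Nol10, Nup153 and Grk5 (0.03, 0.04 and 0.04), which shared its pattern of a higher germ cell level in each library and like levels in both arms. Nearest to Hspb1 were Afap1l1, Ina and Camkv (0.49, 0.50 and 0.51), and nearest to Hspa1b were Nupr1l, Smpd2 and Fdxacb1 (0.27, 0.30 and 0.33). With 6 sums from 3 libraries this likeness is a description.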

How the data were processed

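Droplet libraries were made with the 10x Genomics protocol. Reads were aligned to mm10 (GENCODE vM23) and UMIs counted with Cell Ranger 7.0.1. Whether reads in introns were counted is not given in the sources used here. Used here were matrices of UMI counts (gene by barcode) as deposited by the authors, not normalized, for vehicle 1, vehicle 2 and EV 1. Of EV 2 only the barcodes were used.

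Following the study, barcodes were kept if they had more than 400 and fewer than 4000 genes and a mitochondrial share below 10%. The top Scrublet scores (scanpy 1.11.5) were removed at 0.8% per 1000 cells, where the study used another caller. Counts were summed per library and class (Python 3.11.15, numpy 2.4.6, pandas 2.3.3, scipy 1.17.1) and scaled to their total. Log2 ratios had 0.5 UMI added to each sum, and genes that reached 200 UMIs in a class were tested against the call rule, as was the ratio of germ to feeder cells over both classes. Levels carry exact Poisson intervals, shares Wilson intervals, and ratios to pooled vehicle cells exact conditional intervals. Alternatives used TMM factors (edgeR 4.0.16) and DESeq2 1.42.0 size factors. Scripts were tested on simulated data. Transcripts were aligned with Biopython 1.88, and gene positions are those of GENCODE vM21 (GRCm38).

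Members, class rule, gene lists and tests were chosen with earlier results of these data known. Named genes were the members, up to 3 called genes at each end of the other chaperone and heat shock factor lists in each class, and the 3 genes most like Cryab, Hspb1, Hspa1b and Hspa2. Hspb2, Hspb6, Hspb8 and Hspb11 of the small heat shock list, the chaperonin genes Hspd1 and Hspe1, the tested genes of the heat shock factor list and the called immediate early genes were named after their values were seen.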

Additional observations from a re-analysis of the deposited data

Results flagged for a closer look

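For 4 members, EV 1 lay on one side of both vehicle libraries in feeder cells and on the other side of both in germ cells. The differences between the classes were not tested, since each rests on 1 EV library. On the log2 scale, EV 1 over the vehicle mean, Hsp90aa1 was at 0.38 in feeder cells and −0.20 in germ cells, a difference of 0.58, with 529 UMIs in the germ cells of EV 1. The other 3 rest on 11 to 22 UMIs there. Dnajb1 was at 0.17 and −0.09, a difference of 0.266, Hsph1 at −0.27 and 0.07, a difference of −0.347, and Hspa2 at −0.18 and 0.07, a difference of −0.255. The median of all genes was −0.13 in feeder cells and 0.01 in germ cells.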

How the results depend on the processing

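Cryab was called higher in EV 1 under every alternative tried. Its log2 ratio ran from 2.03 to 2.30 in feeder cells, 2.00 to 2.30 in germ cells and 2.47 to 2.78 over all kept cells. Of 31 member values, 26 kept their direction in all of their alternatives. The exceptions were Dnajb1 in germ cells (0.02 under the stricter class rule) and over all cells (0.08 with TMM, 0.09 with DESeq2 size factors), Hsph1 in germ cells (−0.02 as a mean over cells), and Hspa8 and Hsph1 between germ and feeder cells with TMM (−0.05 and −0.08). TMM and DESeq2 size factors raised the median of all genes in feeder cells by 0.13, so that Hspa2, Hspa8 and Hsp90ab1 were at −0.06, −0.30 and −0.19 with TMM. The calls there, 137 higher and 274 lower (33.3% higher), became 198 and 200 (49.7%) with TMM and 203 and 199 (50.5%) with DESeq2 size factors. Over all kept cells 719 and 2441 (22.8%) became 1071 and 1970 (35.2%) and 1089 and 1958 (35.7%), and Hspa2 was no longer called with either (−0.99 with the latter). Between the classes, TMM and the mean over cells dropped Hspa1b, and the vehicle libraries alone added Hsp90aa1. With no minimum on UMIs, an alternative added after seeing the data, 5 members in place of 3 were called over all kept cells and 5 in place of 3 between the classes, which took in Hspb1 and Hspa1a, with few UMIs. The share of feeder cells with a Cryab UMI was 11.7 percentage points above the vehicle mean, 6.79 at 500 UMIs, 18.7 at 2000 UMIs, 14.6 without thinning and 12.5 under the stricter class rule, and 11.5 to 12.0 against either vehicle library alone. No paired analysis was possible because the arms shared only 1 replicate number with expression, and the ratio of germ to feeder cells, taken within each library, came from no test. Depth limits the germ cells of EV 1, where Hspb1, Hspa1a and Hspa1b had 1 or 2 UMIs each.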
